A study of Homo sapiens with 8 samples.

Results

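The miR-148/miR-152 family is a set of paralogous microRNAs made from 3 separate loci. Its members here are the entries named miR-148a, miR-148b or miR-152, with or without an arm suffix, and that rule took 3 of the 2867 microRNA entries counted in these libraries, namely miR-148a-3p, miR-148b-3p and miR-152-3p. All 3 are strands cut from the 3′ arm of their hairpin, so the balance of the arms was not analysed here. The rule acts on names and uses no measured value, but it was chosen with earlier results of these data known.

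The libraries are small RNA from HEK293, an established cell line of human embryonic kidney origin. In 4 libraries the cells had received 100 nM of an ASO (antisense oligonucleotide), a synthetic strand designed to pair with a given RNA, and in the other 4, the controls, they had received no ASO. All cells were harvested after 48 h, and the question was whether the ASO altered small RNAs besides its target, which the library names give as miR-31. No group received an unrelated ASO, the labels do not say whether control cells were mock-transfected, and nothing in them says that the libraries came from separate cultures.

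A microRNA guides an Argonaute protein to messenger RNAs, mainly through its seed, the bases near the 5′ end that pair with sites in the target. The miR-148/miR-152 family is best known for repressing the DNA methyltransferases DNMT1 and DNMT3B and the immune molecule HLA-G. Members of a seed family can act on the same sites, so the summed level of the family is of interest beside each member's own.

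The mature sequences are shown because the members share a seed and can be told apart in a read only by a few bases outside it. They are from RefSeq (GRCh38.p14), 5′ to 3′, with the seed (bases 2 to 8) in capitals.
miR-148a-3p: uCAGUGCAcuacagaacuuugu
miR-148b-3p: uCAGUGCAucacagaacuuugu
miR-152-3p: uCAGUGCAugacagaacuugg

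With positions counted from 1 at the 5′ end, miR-148a-3p and miR-148b-3p matched at 20 of 22 bases and differed by C9U and U10C. Between miR-148a-3p and miR-152-3p 18 of 21 bases matched, and the differences were C9U, U10G and U20G. miR-148b-3p and miR-152-3p matched at 19 of 21 bases and differed by C10G and U20G. The deposited table gives a length of 22 for miR-148a-3p and miR-148b-3p and of 23 for miR-152-3p, whose RefSeq strand has 21 bases. How many mismatches the authors' counting allowed is not given in the sources used here, so reads passing between such similar entries remain a possible source of error.

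The hairpins show where the counted strand lies in each precursor, with that strand in capitals.
MIR148A: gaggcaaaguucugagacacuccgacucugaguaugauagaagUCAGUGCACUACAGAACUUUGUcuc
MIR148B: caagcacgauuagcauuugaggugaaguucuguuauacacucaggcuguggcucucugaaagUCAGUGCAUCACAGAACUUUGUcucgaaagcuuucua
MIR152: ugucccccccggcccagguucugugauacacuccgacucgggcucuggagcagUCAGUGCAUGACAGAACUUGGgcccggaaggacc

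MIR148A lies at chr7:25949919-25949986 on the minus strand (GRCh38), and no other gene of GENCODE release 29 overlaps it. MIR148B lies at chr12:54337216-54337314 on the plus strand. It is intronic to COPZ1, which encodes a subunit of the coat of Golgi transport vesicles, and to the overlapping gene AC078778.2. MIR152 lies at chr17:48037161-48037247 on the minus strand and is intronic to COPZ2, the paralog of COPZ1. The pair of intronic members thus sit in paralogous hosts, each on its host's strand.

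The RefSeq table searched for the seed holds 2370 mature human names and is not complete (miR-130a-3p, an entry counted and tested here, was not searched). Within it, CAGUGCA was found at bases 2 to 8 of the 3 members. The same 7 bases began 5 further names at base 1, shifted by a single base, and of these miR-301b-3p was counted in these libraries. It stood at 21.0 ± 1.74 CPM in ASO libraries, against 19.7 ± 1.82 CPM in control libraries (mean ± SD, n = 4 each).

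Total counts ran from 8168828 to 11677123 per library. Levels below are in CPM, counts scaled to the summed count of a library's 745 tested entries, with TMM factors that offset differences in composition. Levels of different microRNAs are compared as CPM per base of the length in the table. Adapter ligation favours some small RNA sequences, so a ratio between members describes these libraries and not molecules in cells. The target entry miR-31-5p stood at 837 ± 166 CPM in ASO libraries, against 736 ± 305 CPM in control libraries (adjusted p = 0.851), so it gave no check of the labels. Of 17 microRNAs typical of blood, muscle, liver, neurons or pancreas, 14 entries were listed and 0 of the 9 tested passed the threshold of an adjusted p of 0.05, which 0.134% of all 745 tested entries did. The liver marker miR-122-5p came closest, at 29.7 ± 7.34 CPM in ASO libraries, against 12.1 ± 2.02 CPM in control libraries (log2 fold change 1.30, adjusted p = 0.0516), and its groups did not overlap. Its part in the results below was not tested. Blood miR-142-3p and muscle miR-206 were at 0 in 7 of 8 libraries, but other blood and muscle entries were counted in every library. Among them, blood miR-486-5p stood at 82.1 CPM in ASO libraries, against 83.1 CPM in control libraries. For muscle miR-499a-5p the means were 26.7 and 24.7 CPM, and for muscle miR-1-3p 6.41 and 5.62 CPM. The neuronal miR-9-5p had the highest level of these markers, 3339 CPM in ASO libraries, against 3585 CPM in control libraries.

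The family was dominated by miR-148a-3p in every library. Its mean level was 1358 ± 192 CPM per base with ASO and 1935 ± 689 CPM per base in controls. miR-148b-3p followed with 257 ± 32.1 CPM per base with ASO and 255 ± 9.78 CPM per base in controls, and miR-152-3p was the scarcest with 11.3 ± 0.702 CPM per base with ASO and 10.7 ± 0.341 CPM per base in controls. The 3 members did not overlap in any library, so their order was the same in all 8. The 903 known microRNA entries were ranked by CPM per base, and entries that may share reads were counted separately. miR-148a-3p stood at ranks 9 to 11 in the ASO libraries and 3 to 9 in controls. The ranks of miR-148b-3p were 33 to 37 in the ASO libraries and 33 to 35 in controls, and those of miR-152-3p 125 to 132 in both groups.

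**Figure D1:**
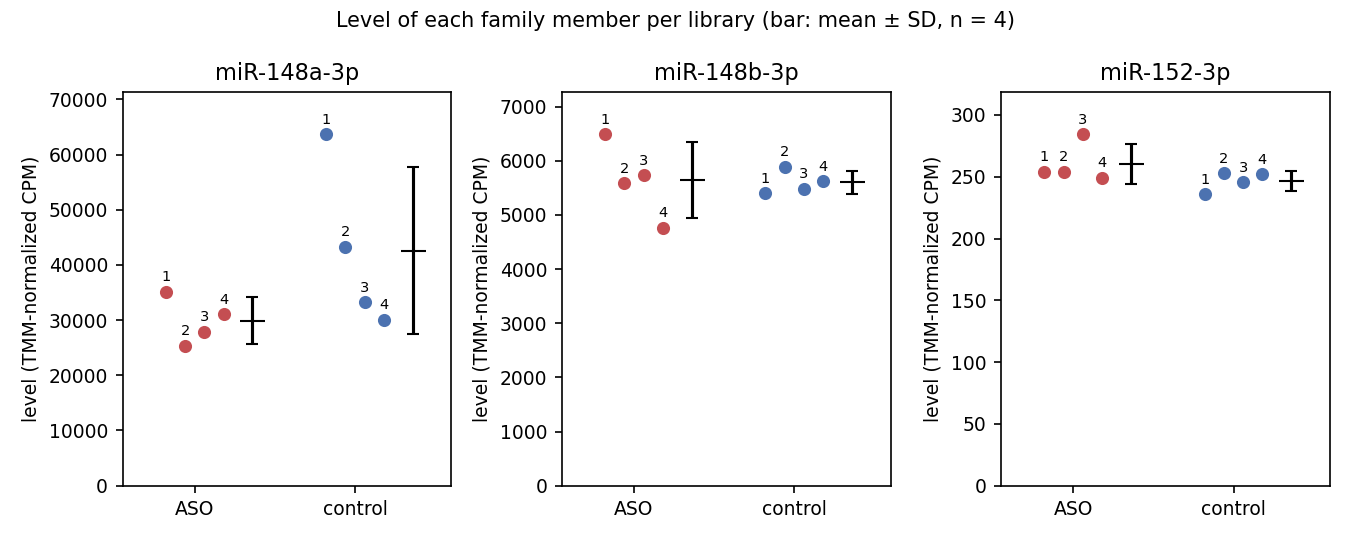
Level of each family member in TMM-normalized CPM (y axis from 0, its own scale per panel) in the 4 ASO and 4 control libraries; numbers are library numbers and bars show mean ± SD. For miR-148a-3p the ASO libraries lie between 25351 and 35137 CPM and control library 1 stands at 63687 CPM, while the groups overlap for all 3 members.

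miR-148a-3p, the member most studied in liver and in metabolism, had a level of 35137, 25351, 27933 and 31094 CPM in ASO libraries 1 to 4, from 342437, 300115, 310585 and 320053 counts. The levels of control libraries 1 to 4 were 63687, 43271, 33231 and 30069 CPM, from 641852, 404664, 275665 and 340681 counts. Control libraries 1 and 2 were above every ASO library, whereas control library 4 was below ASO libraries 1 and 4, so the groups overlapped. The group means were 29879 ± 4220 CPM for the ASO libraries, against 42564 ± 15165 CPM for the control libraries. In the fit, ASO over control came to a log2 fold change of −0.51 (SE 0.24, 95% interval −1.07 to 0.05), which did not pass the threshold of 0.05 in edgeR's quasi-likelihood test over 745 entries (adjusted p = 0.445). As a fold this is 0.702, with an interval of 0.475 to 1.04. Without control library 1 the log2 fold change was −0.23 (adjusted p = 0.726), and the other 3 controls averaged 35524 ± 6893 CPM.

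miR-148b-3p, made from an intron of COPZ1, had group means that differed by less than the spread in either group. It had 6490, 5583, 5738 and 4767 CPM in ASO libraries 1 to 4, against 5399, 5892, 5486 and 5619 CPM in control libraries 1 to 4. ASO library 1 held the highest and ASO library 4 the lowest of the 8 values, with all controls between them. The ASO libraries averaged 5644 ± 707 CPM, against 5599 ± 215 CPM for the control libraries, and the log2 fold change was 0.01 (SE 0.09, adjusted p = 0.972). The 95% interval ran from −0.20 to 0.22, a fold of 0.870 to 1.17. The sign of so small a value was not stable, with −0.03 under quantile normalization and −0.01 in the fit on known microRNAs.

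miR-152-3p, made from an intron of COPZ2, had 254, 254, 284 and 249 CPM in ASO libraries 1 to 4, against 236, 253, 246 and 252 CPM in control libraries 1 to 4. ASO libraries 1 to 3 were above every control and ASO library 4 was below control libraries 2 and 4, so the groups overlapped here too. This order rests on the scaling. Scaled to the whole library total without TMM factors, ASO library 1 had 244 CPM, below the 246 CPM of control library 2. The ASO libraries averaged 260 ± 16.1 CPM, against 247 ± 7.84 CPM for the control libraries, with a log2 fold change of 0.08 (SE 0.06, 95% interval −0.07 to 0.23, adjusted p = 0.627). As a fold this is 1.06, with an interval of 0.954 to 1.17. Under quantile normalization it turned to −0.08.

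Across the table, 1 of 745 entries (0.134%) passed the threshold in edgeR's test, and 0 of the 3 members did. An unadjusted p under 0.05 was reached by 78 entries (10.5%) and again by 0 members, with miR-148a-3p closest at an unadjusted p of 0.0694. Leaving out control library 3 gave it an unadjusted p of 0.0495 in edgeR (adjusted p = 0.418). Leaving out control library 4 gave 0.0258 (adjusted p = 0.248). DESeq2 called 23 entries (3.09%) and 0 members at an adjusted p under 0.05. It gave miR-148a-3p an unadjusted p of 0.0433, where 110 entries (14.8%) had one under 0.05, and an adjusted p of 0.194. In 62 entries (8.32%) the ASO and control libraries did not overlap, and 0 of the 3 members were among them. A fold below 1 was found for 1 of 3 members and for 360 of the 745 entries (48.3%). The median log2 fold change was 0.01 both over the members and over all entries. Both medians are the value of miR-148b-3p itself, so their match says nothing about the family.

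**Figure D2:**
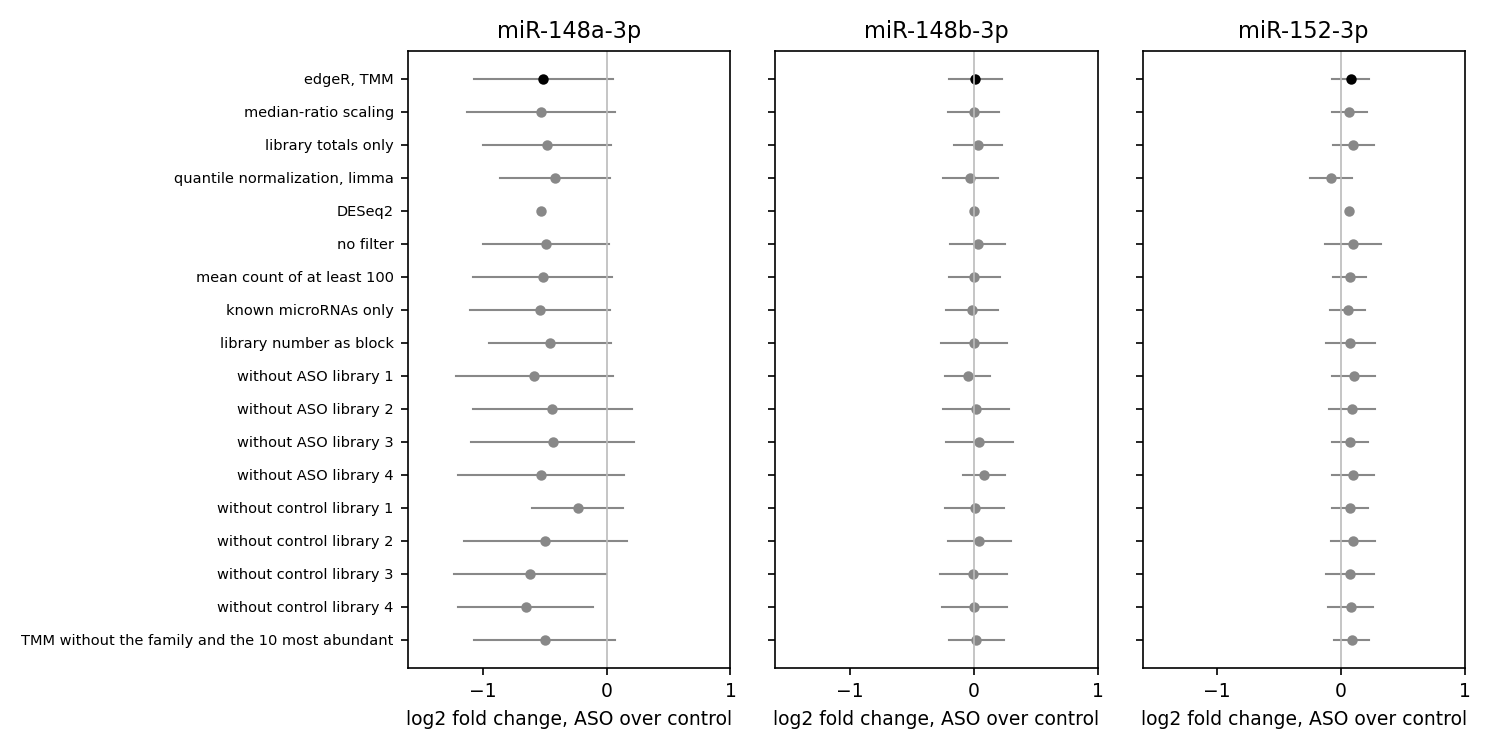
Log2 fold change of each member, ASO over control (x axis), under the edgeR fit with TMM (black) and each alternative (grey). Lines are 95% intervals, which were not computed for DESeq2. miR-148a-3p stays below 0, from −0.65 to −0.23 when 1 library is left out, while the points of miR-148b-3p lie on both sides of 0 and miR-152-3p turns to −0.08 under quantile normalization.

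The summed level of the family was 41881, 31188, 33955 and 36110 CPM in ASO libraries 1 to 4, against 69323, 49415, 38962 and 35941 CPM in control libraries 1 to 4. The sum averaged 35783 ± 4537 CPM over ASO libraries, against 48410 ± 15090 CPM over control libraries, and ASO libraries 1 and 4 exceeded control library 4. It made up 3.16% to 4.03% of all counts in ASO libraries and 3.63% to 6.66% in controls. Since miR-148a-3p made up most of the sum, these values largely repeat its own, and no test was made on the sum.

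Within the family's counts, miR-148a-3p took 83.9%, 81.3%, 82.3% and 86.1% in ASO libraries 1 to 4, against 91.9%, 87.6%, 85.3% and 83.7% in control libraries 1 to 4. The Wilson 95% interval for the share in control library 1 was 91.8% to 91.9%, so counting error was small beside these differences. miR-148b-3p took 13.2% to 17.9% in ASO libraries and 7.79% to 15.6% in controls. miR-152-3p took 0.606% to 0.838% with ASO and 0.340% to 0.702% in controls.

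Ratios within a library do not depend on how libraries are scaled. The count of miR-148a-3p over that of miR-148b-3p was 5.41, 4.54, 4.87 and 6.52 in ASO libraries 1 to 4, set against 11.8, 7.34, 6.06 and 5.35 in control libraries 1 to 4. Both have the same length in the table, so these are also ratios per base. Control library 1 stood highest, and control library 4 fell within the range of the ASO libraries. The mean log2 ratio was 2.40 ± 0.23 over ASO libraries, against 2.86 ± 0.50 over control libraries, and the difference was −0.46 (exact permutation test over libraries, two-sided, p = 0.143, or 0.214 adjusted over the 3 ratios). The smallest p that 4 against 4 libraries allow is 0.0286.

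The count of miR-148a-3p over that of miR-152-3p was 138, 99.7, 98.2 and 125 in ASO libraries 1 to 4. In control libraries 1 to 4 it was 270, 171, 135 and 119. Per base the ratios were 145, 104, 103 and 130 in ASO libraries, and 282, 179, 141 and 125 in control libraries. These rest on the length of 23 that the table gives miR-152-3p. The mean log2 ratio of counts was 6.83 ± 0.24 over ASO libraries, against 7.37 ± 0.52 over control libraries, and the difference was −0.54 (exact permutation p = 0.143, adjusted p = 0.214). Without control library 1 this difference was −0.30, and that between miR-148a-3p and miR-148b-3p was −0.23.

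The log2 ratio of miR-148b-3p to miR-152-3p was 4.68, 4.46, 4.33 and 4.26 in ASO libraries 1 to 4, while control libraries 1 to 4 lay close together at 4.52, 4.54, 4.48 and 4.48. The means were 4.43 ± 0.18 over ASO libraries, against 4.50 ± 0.03 over control libraries, and the difference was −0.07 (exact permutation p = 0.400, adjusted p = 0.400). ASO library 1 was the only one of its group above all controls. Without it the difference was −0.16, and the ASO libraries left all lay below every control. The exact permutation test then gave the smallest p that 3 against 4 libraries allow, 0.0286 before adjustment over the 3 ratios. Since leaving out that library is what set the groups apart, this p is no separate support for a difference.

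**Figure D3:**
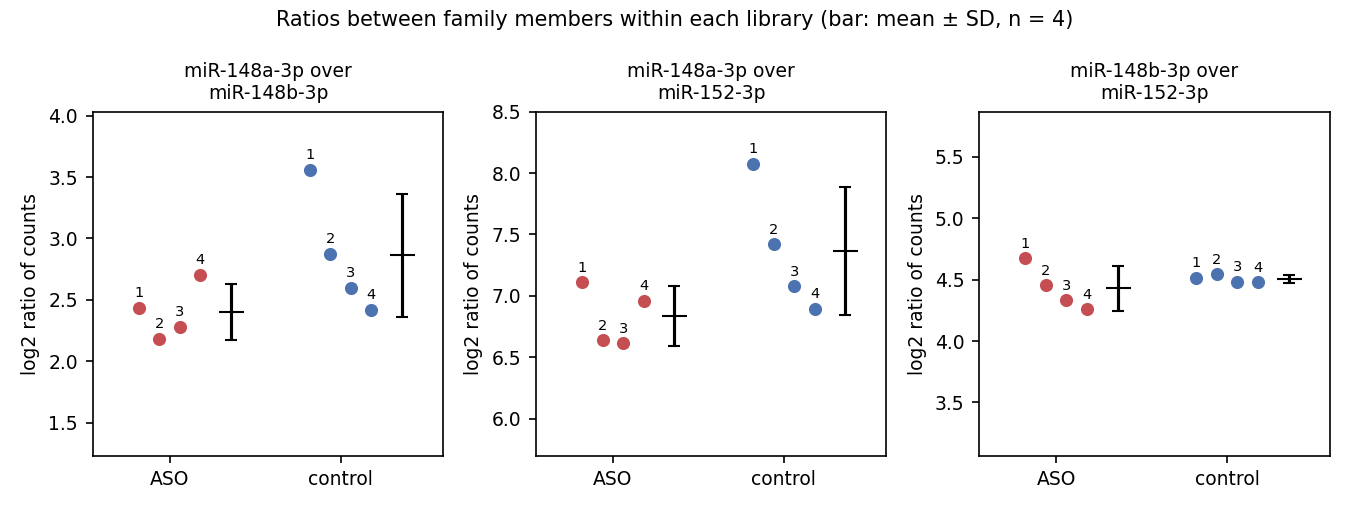
Log2 ratio of counts between members within each library (y axis, panels spanning equal ranges), with library numbers and bars for mean ± SD of the 4 ASO and 4 control libraries. Control library 1 is highest in both ratios that hold miR-148a-3p, and the 4 controls sit between 4.48 and 4.54 for miR-148b-3p over miR-152-3p.

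The members differed in how much they varied between libraries of a group. The SD of log2 level within groups was 0.37 for miR-148a-3p, 0.14 for miR-148b-3p and 0.07 for miR-152-3p, although miR-148a-3p had the most counts and the narrowest counting error. The widest Wilson interval of a single library reached 0.367% of the value to either side for miR-148a-3p, 0.916% for miR-148b-3p and 4.34% for miR-152-3p. The set for comparison was 170 known entries above 0 in every library with a mean count of at least 1000, whose median SD was 0.15. Of these, 12 varied more than miR-148a-3p, 95 more than miR-148b-3p and 155 more than miR-152-3p. Between the highest and lowest ASO library, miR-148a-3p differed 1.39-fold, miR-148b-3p 1.36-fold and miR-152-3p 1.14-fold, and in the controls these spans were 2.12-fold, 1.09-fold and 1.07-fold.

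**Figure D4:**
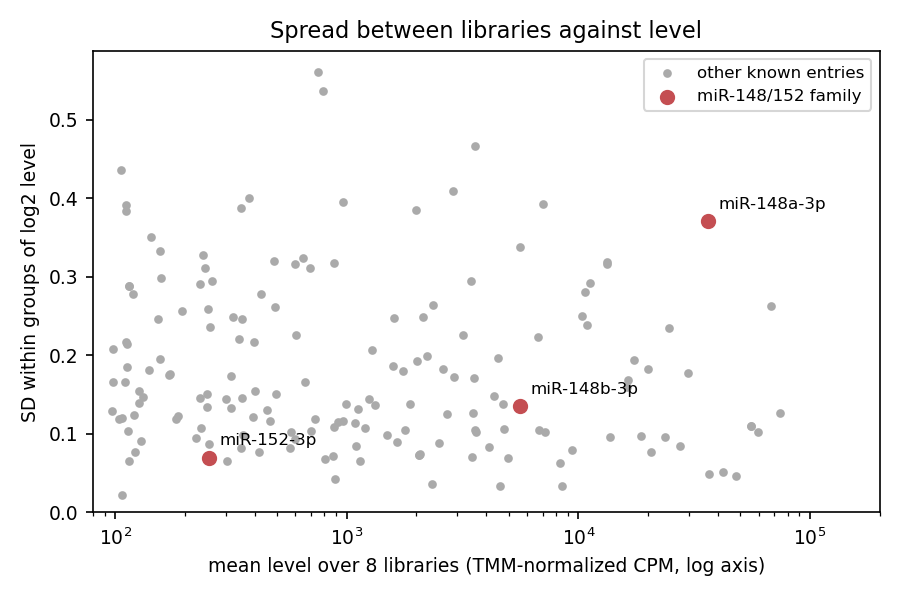
SD of log2 level within groups (y axis) against mean level over the 8 libraries in CPM (log x axis) for 170 known entries with a mean count of at least 1000. The family members, in red, stand at 0.37, 0.14 and 0.07, above, near and below the median of 0.15.

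Control library 1 stood out for miR-148a-3p, whose SD over controls was 15165 CPM with it and 6893 CPM without it. There the level was 1.81 times the geometric mean of the other 3 controls, and 1 of the 170 entries was higher there by a larger factor. A further 9 entries were lower there by more than that factor, so 10 of the 170 departed further from the other controls in that library. In the same library miR-148b-3p stood at 0.953 times and miR-152-3p at 0.943 times the other controls, so the members that share the seed were not high with it. The total count of that library, 10496804, lay within the range of the others, but its TMM factor, 0.964, was the lowest of all libraries. The target entry miR-31-5p departed furthest of the 170 there, by a log2 difference of −1.28 from the other controls. What else set it apart was not tested.

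The entries most like miR-148a-3p were found by the root mean square difference between log2 levels over the 8 libraries, each centred on its own mean, among 167 known entries outside the family. The closest were miR-3909 (0.09), miR-7-5p (0.11), miR-129-5p (0.11), miR-671-3p (0.15) and miR-548au-3p (0.16), where a flat profile would give 0.39. miR-7-5p, an abundant microRNA in these cells, had 67452, 51278, 53962 and 60906 CPM in ASO libraries 1 to 4, against 101787, 82300, 65738 and 62053 CPM in control libraries 1 to 4. miR-3909 had 214, 172, 201 and 211 CPM in ASO libraries 1 to 4, against 371, 273, 222 and 203 CPM in control libraries 1 to 4. All 5 were highest in control library 1 and next highest in control library 2, as miR-148a-3p was, which their choice by profile favours. None of the 5 passed the threshold (log2 fold changes −0.46 to −0.35, adjusted p = 0.445 for each).

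The entries most like miR-148b-3p were miR-30a-5p (0.06), let-7c-5p (0.07), miR-340-5p (0.07), miR-450a-5p (0.08) and miR-30e-5p (0.08), where a flat profile would give 0.12. miR-30a-5p had 20421, 18105, 19025 and 16722 CPM in ASO libraries 1 to 4, against 19173, 19651, 18012 and 17955 CPM in control libraries 1 to 4. Like miR-148b-3p, for whose profile it was picked, it was highest in ASO library 1 and lowest in ASO library 4. No entry was among the 5 most alike for both members.

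**Figure D5:**
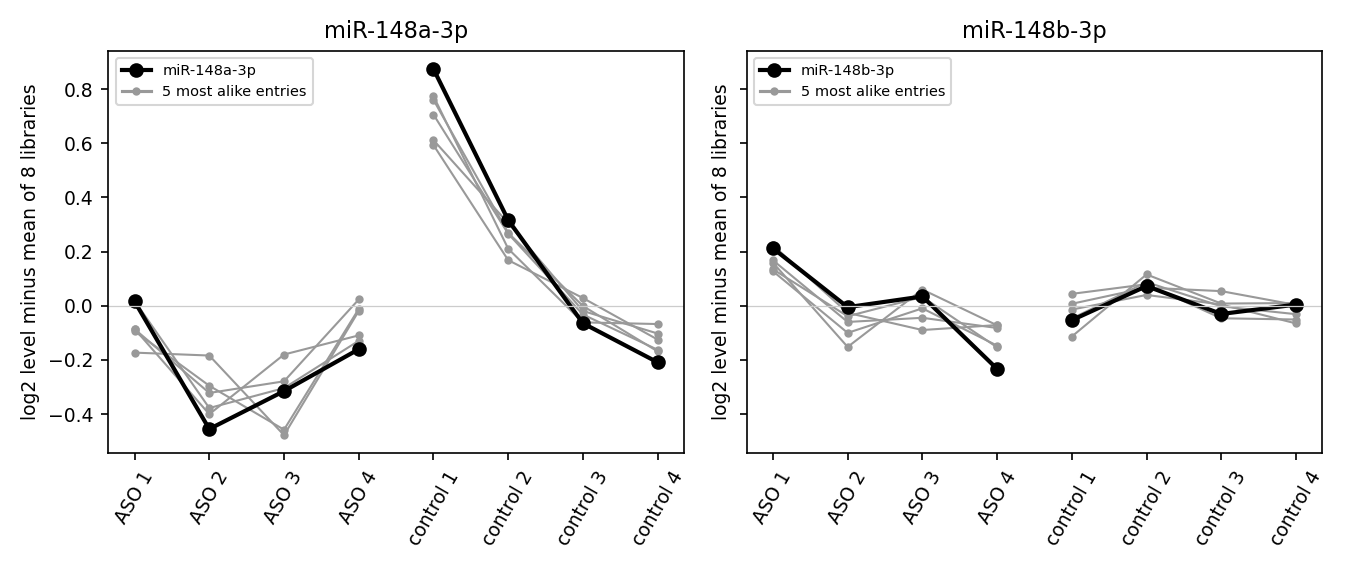
Log2 level minus the mean of the 8 libraries (y axis) in each ASO and control library for miR-148a-3p and miR-148b-3p (black) and the 5 known entries most like each (grey). miR-148a-3p and its 5 neighbours peak in control library 1, at 0.87 for miR-148a-3p, whereas miR-148b-3p stays between −0.23 and 0.21.

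By mean level per base miR-148a-3p ranked 9 among known microRNAs, below let-7a-5p, miR-26a-5p and let-7f-5p and above miR-10a-5p, miR-25-3p and miR-10b-5p. let-7f-5p averaged 1675 ± 76.3 CPM per base with ASO and 1666 ± 26.3 CPM per base in controls. For miR-10a-5p the values were 1293 ± 72.2 CPM per base with ASO and 1413 ± 246 CPM per base in controls. The mean of miR-148a-3p lay between these with ASO and above both in controls, where it differed from each of them by less than its own SD between libraries.

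Other microRNAs known to target DNA methyltransferases were read beside the family, as a list of 8 entries from the miR-29 family, miR-101, miR-185 and miR-342. None passed the threshold (0.134% of all entries did), 3 had an unadjusted p under 0.05 (10.5% of all entries), and 6 had a fold above 1 (51.7% of all entries). Those 3 were miR-29a-3p and the near-identical entries miR-101-3p and miR-101-2-3p, which may share reads. The entries miR-29b-1-3p and miR-29b-2-3p, with summed counts of 890 and 889, may share reads too. Both had a fold above 1 and were counted separately among the 6 and in the median. The median log2 fold change was 0.23 (0.11 under quantile normalization), against 0.01 over all entries. In control library 1, miR-29a-3p and miR-342-3p were below the other controls, by log2 differences of −0.34 and −0.30. Both miR-101 entries were above the other controls there, by 0.19 each. The part of that library in the median was not tested. miR-29a-3p, which represses DNMT3A and DNMT3B, stood at 333 ± 21.0 CPM in ASO libraries, against 271 ± 32.5 CPM in control libraries (log2 fold change 0.30, adjusted p = 0.405). miR-101-3p stood at 805 ± 39.7 CPM in ASO libraries, against 966 ± 91.4 CPM in control libraries (−0.26, adjusted p = 0.402), and the near-identical entry miR-101-2-3p gave −0.26. miR-342-3p had a log2 fold change of 0.23 (adjusted p = 0.464). The list took either arm of a hairpin, so miR-29c-5p is the opposite arm to the strand best known for these targets.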

How the data were processed

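Per the submitters' processing notes, the tools were bcl2fastq 2.20, Trimmomatic 0.30 and edgeR 3.4.6, with GRCh38 as the build. No source used here gives the aligner or counter. Libraries were made with an NEB small RNA kit from total RNA, per the labels' protocols. The authors deposited raw counts per entry and library, which were tested here. They also deposited CPM columns headed TPM, which equal the count scaled to the library total within 0.223 CPM and served only for that check.

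The test covered the 745 entries above 0 in at least 4 of 8 libraries whose mean count reached 10, with edgeR 4.0.16, TMM factors (0.964 to 1.02), a trended dispersion, the quasi-likelihood test, two-sided, and Benjamini-Hochberg adjustment over all 745. All 3 members passed this filter. The test was checked on simulated data. Ratios had 0.5 counts added to each member. Alternatives were median-ratio scaling, library totals, quantile normalization of log2(CPM + 1) with limma 3.58.1, DESeq2 1.42.0, other filters, known entries, a replicate block and each library left out; TMM factors from entries outside the family and the 10 most abundant were added after seeing the data. A second planned list is not reported here. The members and lists were chosen with earlier results of these data known. Entries named besides the members include the 5 most alike in profile to each of the most abundant pair. Others are the nearest in level, those with the seed, and up to 4 DNA methyltransferase regulators with the smallest p. The markers miR-9-5p, miR-122-5p, miR-142-3p, miR-206, miR-486-5p, miR-499a-5p and miR-1-3p were named after their values were seen. Wilson intervals cover counting error alone, as PCR can copy 1 molecule many times. Since separate cultures are not stated in the labels, the p-values reflect a spread that can be technical.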

Additional observations from a re-analysis of the deposited data

Results flagged for a closer look

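In ASO library 3, miR-152-3p stood at 284 CPM, apart from the 249 to 254 CPM of the other 3 ASO libraries by more of the group's range (0.859) than the 95% limit for 4 samples. This was the 1 such value among 14 groups looked at (levels, ratios and the family's sum in ASO and control libraries), and chance gives about 1 in 20. The level of miR-148a-3p in control library 1 did not reach that limit (0.607).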

How the results depend on the processing

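miR-148a-3p kept a negative log2 fold change and missed the threshold in all 17 alternatives: −0.54 to −0.42 over the other scalings, tools, filters and the block (adjusted p = 0.194 to 0.509), and −0.65 to −0.23 on leaving out 1 library (adjusted p = 0.248 to 0.726). miR-148b-3p turned to −0.027 under quantile normalization and −0.012 with known microRNAs only, and ranged from −0.049 (without ASO library 1) to 0.085 (without ASO library 4), turning to −0.0022 without control library 3. miR-152-3p turned to −0.079 under quantile normalization and ranged from 0.072 to 0.10 on leaving out 1 library. The cause of these changes of sign was not tested, and no member passed the threshold in any alternative.

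The count of entries past the threshold, 1 in the edgeR fit, was 3 with quantile normalization, 23 with DESeq2, 0 with no filter, 5 with a mean count of at least 100, 4 with known microRNAs only and 0 (65 at an unadjusted p under 0.05) with the replicate block, and 0 (without control library 2) to 5 (without control library 4) on leaving out 1 library; no member was among them in any of these. Same-numbered libraries deviated together with correlations of 0.007, 0.03, 0.30 and −0.04, and differently numbered ones with −0.26 to 0.18. With so few libraries these values cannot show whether the numbers pair them. Under the block the members' log2 fold changes were −0.46, 0.00 and 0.08.

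On leaving out 1 library the ratio differences ranged from −0.61 to −0.23 (miR-148a-3p to miR-148b-3p) and −0.69 to −0.30 (miR-148a-3p to miR-152-3p). For miR-148b-3p to miR-152-3p they ranged from −0.16 to −0.016. The exact permutation p there was 0.0286 without ASO library 1, the only ASO library above the controls. A pseudocount of 5 counts left the calls of the ratios as they were, and 4 pairs allow no p below 0.125. The difference of the family's sum, −12627 CPM, ranged from −16783 to −5656 CPM. Ratios of arms had no value, since 3p strands alone were analysed.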
